A study of Homo sapiens with 6 samples.

Results

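The 9 genes described here carry the HLA class I antigen presentation route: the heavy chain genes HLA-B, HLA-C, HLA-E and HLA-F, the shared light chain gene B2M, the peptide transporter genes TAP1 and TAP2, and the immunoproteasome genes PSMB8 and PSMB9. They were picked out by gene symbol, with no threshold on their values, and are 9 of the 57736 genes in the count table. The cells were AALE, a human airway line of bronchial basal type kept dividing by SV40 genes and telomerase, grown in SAGM medium. The NRG1 group (3 libraries) was a stable pool carrying a lentiviral vector for overexpression of NRG1, whose product neuregulin is a growth factor that acts through ERBB receptors. The control group (3 libraries) was a stable pool carrying the control lentiviral vector. A difference between the pools that is not due to NRG1 cannot be told apart from an effect of NRG1. Both groups share the line and its immortalising genes, and polyA RNA was sequenced. Nothing in the labels says whether each library had its own culture, so p-values measure only the library-to-library spread, and that spread may be technical.

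HLA class I molecules show peptides from inside the cell to CD8 T cells and to natural killer cells. The proteasome cuts proteins into peptides, the TAP1 and TAP2 pair moves the peptides into the endoplasmic reticulum, and a loading complex fits them onto a heavy chain joined to beta-2-microglobulin, the product of B2M. Interferons are known to raise most of these genes in epithelial cells, through interferon regulatory factors (IRFs) and the class I transactivator NLRC5, and NF-kappaB acts on some of their promoters.

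The libraries held between 8612234 and 13207620 expected counts in total. NRG1 itself stood at 6647, 3854 and 3781 CPM (counts scaled to library size with TMM factors) in the 3 NRG1 libraries, against 11.6, 7.87 and 12.3 CPM in the 3 control libraries, which matched the labels. NRG1 1 and control 3 stood apart from the other libraries of their own groups. The root mean square log2 difference between NRG1 2 and NRG1 3 was 0.361, and NRG1 1 was 0.806 and 0.800 away from them. Control 1 and control 2 differed by 0.506, and control 3 was 0.803 and 0.814 away from them. The basal marker genes KRT5 and TP63 were present in every library, and 7 of 10 basal markers had a log2 fold change below 0. KRT17 had a log2 fold change of -0.995 and KRT14 one of -2.45, both called lower by DESeq2, KRT15 one of 2.30, called higher by DESeq2, and NGFR one of -3.05, and edgeR called none of these 4. NGFR had 15.2, 15.7 and 13.6 CPM with NRG1, against 18.3, 46.8 and 302.5 CPM in controls, with control 3 far above the rest. Without NRG1 1 and control 3, NGFR was at -1.14. Of 10 leukocyte markers, CD3E, CD2, MS4A1 and TYROBP had 0 counts in all 6 libraries. CD14 had 3.21, 6.82 and 5.65 CPM with NRG1, against 4.03, 3.23 and 1.70 CPM in controls, and CD68, a lysosomal gene abundant in macrophages, had 24.7, 5.61 and 3.69 CPM with NRG1, against 23.9, 18.9 and 32.0 CPM in controls. PTPRC, the gene of the pan-leukocyte surface protein CD45, had 0 counts in all 3 NRG1 libraries and 1 control library, and at most 2 counts in the others. The fibroblast marker list summed to 22.1, 28.2 and 28.9 CPM in the NRG1 libraries, against 70.7, 44.7 and 45.5 CPM in the control libraries. The part of these marker genes in the results below was not tested.

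Upstream sequences were available for 8 of the 9 members, with 10 annotated starts in all (RefSeq, GRCh38.p14), and HLA-E was without an entry in the table. Those of 5 members are shown because the members differ in the interferon-related letters they carry. Each is the 250 bases before the annotated start, 5′ to 3′ on the gene's strand. Capitals mark matches on either strand to TTTCNNTTT (the core of the interferon-stimulated response element, ISRE) and its shorter form TTTCNNTT. They also mark TTCNNNGAA (a pattern like the gamma-activated site), CCAAT (the NF-Y box), TGACG (the core of the cyclic AMP response element) and GGGATTCCC (a kappaB site). Every match to the ISRE core also holds the short form. HLA-B is at chr6:31357180-31357429 and HLA-C at chr6:31272093-31272342, both on the minus strand. B2M is at chr15:44711267-44711516 on the plus strand. TAP1 is at chr6:32853705-32853954 on the minus strand, and PSMB9 at chr6:32853942-32854191 on the plus strand.
HLA-B: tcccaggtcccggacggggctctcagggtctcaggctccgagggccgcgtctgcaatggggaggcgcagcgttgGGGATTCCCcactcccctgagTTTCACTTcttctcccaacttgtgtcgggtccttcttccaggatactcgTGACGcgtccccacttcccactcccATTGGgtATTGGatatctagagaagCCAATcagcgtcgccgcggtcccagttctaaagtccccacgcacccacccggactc
HLA-C: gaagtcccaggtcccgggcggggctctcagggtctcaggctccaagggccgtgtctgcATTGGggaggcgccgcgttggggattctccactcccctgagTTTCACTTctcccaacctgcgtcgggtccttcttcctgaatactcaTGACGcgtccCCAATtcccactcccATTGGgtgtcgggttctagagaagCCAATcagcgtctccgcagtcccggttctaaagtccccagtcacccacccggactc
B2M: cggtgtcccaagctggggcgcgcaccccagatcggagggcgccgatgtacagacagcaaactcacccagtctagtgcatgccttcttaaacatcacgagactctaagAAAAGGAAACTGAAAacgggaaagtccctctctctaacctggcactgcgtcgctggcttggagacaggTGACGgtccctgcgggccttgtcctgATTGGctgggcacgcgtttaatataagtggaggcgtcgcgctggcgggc
TAP1: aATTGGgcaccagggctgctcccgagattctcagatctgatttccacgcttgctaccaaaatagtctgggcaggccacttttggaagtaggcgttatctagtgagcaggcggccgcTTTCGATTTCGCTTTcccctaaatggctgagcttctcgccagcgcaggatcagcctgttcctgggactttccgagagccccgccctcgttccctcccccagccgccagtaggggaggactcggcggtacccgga
PSMB9: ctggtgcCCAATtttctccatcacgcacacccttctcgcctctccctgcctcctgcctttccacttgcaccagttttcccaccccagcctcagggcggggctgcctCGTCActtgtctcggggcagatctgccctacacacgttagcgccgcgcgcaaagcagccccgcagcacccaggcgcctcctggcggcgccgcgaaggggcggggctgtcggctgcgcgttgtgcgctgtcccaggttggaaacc

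The kappaB letters are in HLA-B alone among the 8 members. Both HLA-B and HLA-C hold the short ISRE form, at bases -155 to -148 of HLA-B and -151 to -144 of HLA-C. The full ISRE core was found in 4 of 8 members, HLA-F, B2M, TAP1 and TAP2, against 9.2% of 35116 promoters. Including the short form, 6 of 8 members had a match, against 20.3% of promoters. CCAAT was found in 6 of 8 members and 32.0% of promoters, TGACG in 6 of 8 members and 21.2% of promoters, and GGGATTCCC in 1 of 8 members and 0.362% of promoters. The pattern like the gamma-activated site was found in 2 of 8 members, PSMB8 and TAP1, at the downstream one of their starts, and in 6.57% of promoters. A member was counted if any of its starts matched, while each promoter was counted by itself. For TAP1 and PSMB8, which have more than 1 start, the shares are thus not like for like. TAP1 and PSMB9 are transcribed away from each other from starts 488 bases apart, so the far ends of their windows overlap. The CCAAT match of PSMB9 and the first match of TAP1 are the same 5 bases, chr6:32853949-32853953. A match describes letters only, and no binding was measured.

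**Figure D1:**
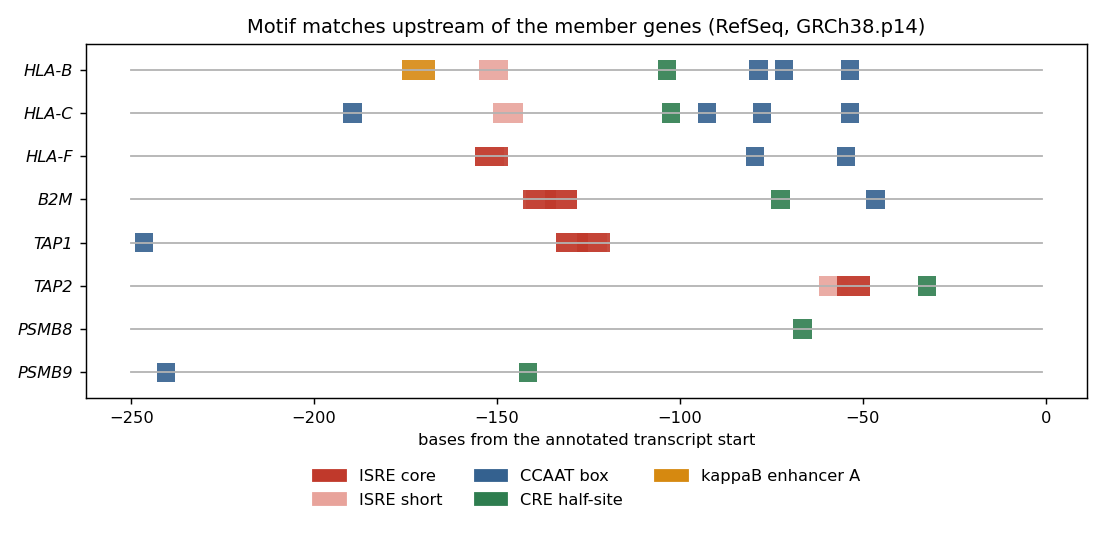
Positions of motif matches in the 250 bases before the annotated start of 8 members, with distance from the start in bases on the x axis and 1 line per gene (for TAP1 and PSMB8, the upstream one of their starts). The ISRE core lies between bases -156 and -120 in HLA-F, B2M and TAP1 and closer to the start, between -57 and -49, in TAP2.

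The first question was whether the class I genes differed between the NRG1 and the control group. None of the 9 members passed the threshold (adjusted p under 0.05 in edgeR's quasi-likelihood test, with the adjustment of Benjamini and Hochberg taken over 15421 genes), and 0 of 9 had an unadjusted p under 0.05. Over all genes tested, 0.00648% passed the adjusted threshold, which is NRG1 alone, and 11.8% had an unadjusted p under 0.05. DESeq2 also called 0 of 9, against 1.36% of all genes. Without NRG1 1, edgeR called 0 of 9 members and 0.24% of all genes, and without both NRG1 1 and control 3 it called 0 of 9 members and 9.82% of all genes. The fitted log2 fold changes (NRG1 over control) ran from -0.39 for PSMB9 to 0.21 for HLA-C, with 5 above 0 and 4 below, and a median of 0.048 against 0.0 over all genes. The 95% intervals of all 9 held 0, and over the 9 they reached from a fold of 0.487 to one of 1.83. With only 1 gene called among all tested, these values do not show that the members' levels were equal.

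Among the classical heavy chains, HLA-B (ENSG00000234745, chromosome 6) and HLA-C (ENSG00000204525, chromosome 6) present peptides to T cells, and HLA-C is also a main ligand of killer cell receptors. HLA-B stood at 104.0, 201.0 and 199.4 CPM in the NRG1 libraries, against 127.5, 210.1 and 214.6 CPM in the control libraries. NRG1 1 and control 1 were both far below the other 4 libraries, and the groups overlapped. The means were 168.1 ± 55.6 CPM with NRG1 and 184.1 ± 49.0 CPM in controls (SD, n = 3 each), and the edgeR log2 fold change was -0.13 (SE 0.295, adjusted p = 0.877). Without NRG1 1 and control 3 the sign turned, to 0.25 (adjusted p = 0.488). HLA-C stood at 306.3, 450.0 and 408.1 CPM with NRG1, against 291.7, 363.2 and 350.7 CPM in controls. NRG1 2 and NRG1 3 were above every control library and NRG1 1 was above control 1 only. The edgeR log2 fold change was 0.21 (SE 0.182, 95% interval -0.21 to 0.63, adjusted p = 0.644).

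HLA-E (ENSG00000204592, chromosome 6) presents leader peptides of other class I chains to the natural killer cell receptor NKG2A. It had 152.7, 150.2 and 151.0 CPM in the NRG1 libraries, against 151.8, 165.9 and 164.8 CPM in the control libraries. NRG1 2 and NRG1 3 were the lowest of the 6, and NRG1 1 lay just above control 1. The SD within NRG1 was 1.24 CPM around a mean of 151.3, and within controls 7.87 CPM around a mean of 160.8. Its edgeR interval was the narrowest of the 9, from -0.39 to 0.21 around -0.088 (SE 0.132, adjusted p = 0.802). HLA-F (ENSG00000204642, chromosome 6), a less abundant non-classical chain, had 14.7, 30.9 and 27.1 CPM with NRG1, against 17.7, 26.1 and 21.3 CPM in controls. The lowest and the highest value of the 6 were both NRG1 libraries, and the edgeR log2 fold change was 0.17 (SE 0.306, adjusted p = 0.837).

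Heavy chain genes and their pseudogenes are close copies, so reads that fit several of them were shared out in the authors' estimate and the split between them is uncertain. Summed over 11 class I genes and pseudogenes, the level was 846, 1231 and 1166 CPM with NRG1, against 829, 1091 and 1088 CPM in controls. Replicate 1 was the lowest in each group, and the groups overlapped. The edgeR log2 fold change of the sum was 0.11 (SE 0.196, 95% interval -0.34 to 0.56, adjusted p = 0.836). The exons of HLA-F also share 535 bases with the antisense gene HLA-F-AS1 (GENCODE 29), which had 3.80 to 5.75 CPM, and the kit does not mark strand, so reads there cannot be told apart.

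B2M (ENSG00000166710, chromosome 15), the light chain that every class I molecule needs for stable surface display, had 448.1, 607.3 and 622.1 CPM in the NRG1 libraries, against 509.1, 620.8 and 487.2 CPM in the control libraries. NRG1 3 was the highest and NRG1 1 the lowest of the 6. The means were 559.2 ± 96.5 CPM with NRG1 and 539.1 ± 71.7 CPM in controls (SD, n = 3 each), with an edgeR log2 fold change of 0.053 (SE 0.180, 95% interval -0.36 to 0.47, adjusted p = 0.923). Heavy chain levels relative to B2M also overlapped between the groups. The log2 ratio of expected counts to B2M differed (NRG1 minus control) by -0.20 for HLA-B, 0.15 for HLA-C, -0.13 for HLA-E and 0.066 for HLA-F. The two-sided exact permutation p-values were 0.4, 0.3, 0.6 and 0.9, and 3 against 3 libraries cannot give less than 0.1.

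TAP1 and TAP2 encode the subunits of the transporter that carries peptides into the endoplasmic reticulum. TAP1 (ENSG00000168394, chromosome 6) had 60.9, 81.0 and 74.9 CPM with NRG1, against 73.7, 110.3 and 73.1 CPM in controls. Control 2 was well above every other library, NRG1 1 was the lowest, and the other 4 lay close together. The edgeR log2 fold change was -0.24 (SE 0.214, 95% interval -0.73 to 0.25, adjusted p = 0.650). TAP2 (ENSG00000204267, chromosome 6) had 111.4, 102.4 and 105.1 CPM with NRG1, against 109.6, 134.4 and 63.2 CPM in controls. The 3 NRG1 values lay between the lowest and the highest control value, and the edgeR log2 fold change was 0.055 (SE 0.257, adjusted p = 0.947). Without control 3 it was -0.21 (adjusted p = 0.697).

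The low TAP2 value of control 3 stood beside a high value of an overlapping gene. AL669918.1, a protein-coding gene in GENCODE 29, shares 2064 of the 6390 exon bases of TAP2 on the same strand, so reads there can be assigned to either. AL669918.1 had 24.4, 27.2 and 27.1 CPM in the NRG1 libraries, against 35.7, 26.7 and 40.6 CPM in the control libraries, with control 3 the highest. The 2 genes together gave 135.8, 129.6 and 132.2 CPM with NRG1, against 145.3, 161.2 and 103.8 CPM in controls. Control 3 stayed the lowest of the 6 on the sum, and the groups still overlapped. AL669918.1 was named after its values were seen.

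The immunoproteasome subunits encoded by PSMB8 and PSMB9 replace the constitutive subunits encoded by PSMB5 and PSMB6 and shift the peptides cut towards those that class I chains bind. PSMB8 (ENSG00000204264, chromosome 6) had 30.7, 42.4 and 35.3 CPM with NRG1, against 33.0, 39.4 and 32.7 CPM in controls. NRG1 libraries held both the highest and the lowest value, and the edgeR log2 fold change was 0.048 (SE 0.199, adjusted p = 0.939). PSMB9 (ENSG00000240065, chromosome 6) had 7.29, 10.84 and 11.40 CPM with NRG1, against 11.45, 15.84 and 11.81 CPM in controls. It was the single member whose groups did not overlap, with every NRG1 library lower, though NRG1 3 lay just below control 1. Over all genes tested, 10.2% had groups that did not overlap with NRG1 lower and 9.36% with NRG1 higher, so 1 of 9 members lower and 0 of 9 higher is near that background.

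The PSMB9 means were 9.84 ± 2.23 CPM with NRG1 and 13.0 ± 2.44 CPM in controls (SD, n = 3 each). Its edgeR log2 fold change was -0.39 (SE 0.281, 95% interval -1.04 to 0.25, unadjusted p = 0.199, adjusted p = 0.587). PSMB9 was the least counted member, with 59.21 expected counts in NRG1 1, while member counts reached 6500 for B2M. PSMB8-AS1, an antisense gene that shares exon bases with PSMB8, TAP1 and PSMB9, had 8.24, 9.02 and 10.6 CPM in the NRG1 libraries, against 8.09, 20.1 and 7.63 CPM in the control libraries. Its highest library, control 2, was also the highest for TAP1 and PSMB9, and its part in their values was not tested.

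**Figure D2:**
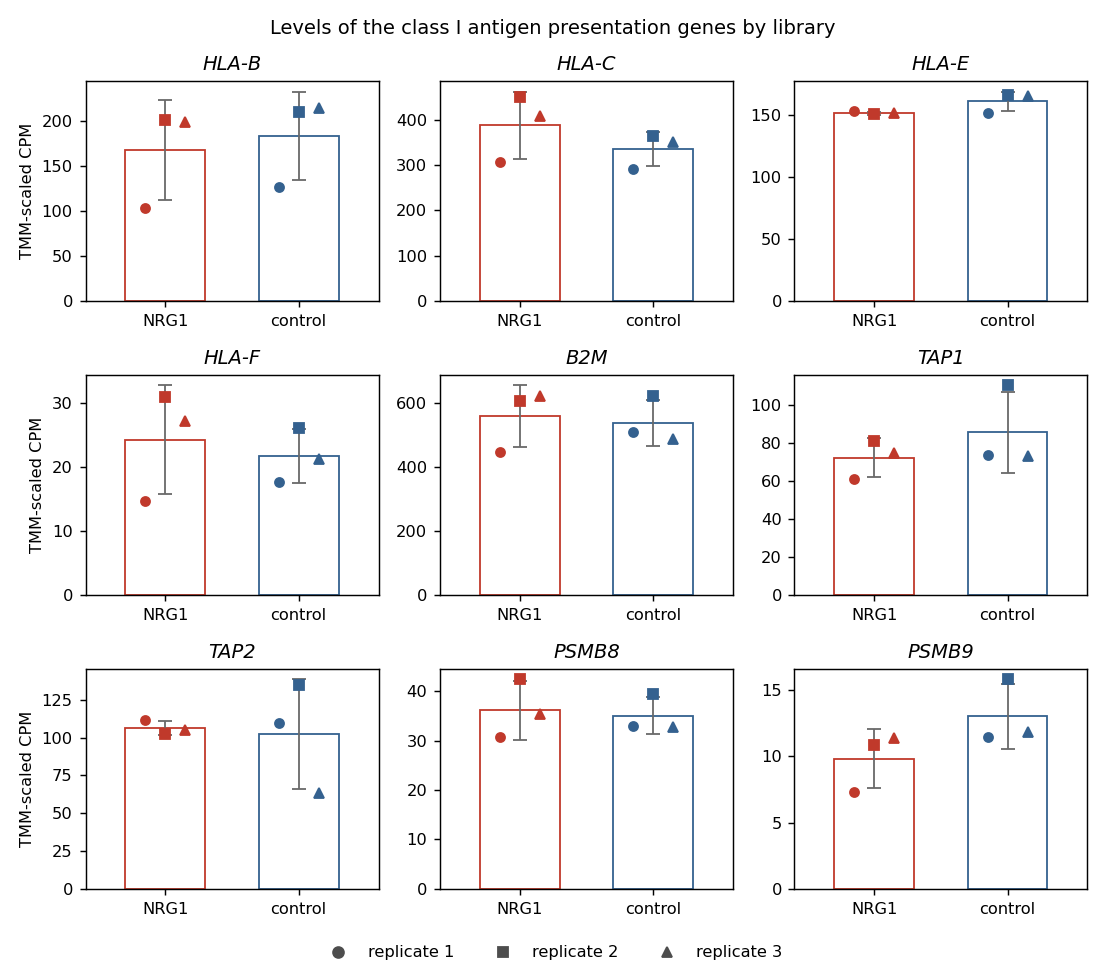
Level of each member in TMM-scaled CPM (y axis, starting at 0) in the 3 NRG1 and the 3 control libraries, with 1 point per library, an open bar at the group mean and a line for the SD. The groups overlap in 8 of 9 panels, and in the PSMB9 panel NRG1 values of 7.29 to 11.40 CPM lie below control values of 11.45 to 15.84 CPM.

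The swap of proteasome subunits was compared as the ratio of each immunoproteasome gene to the constitutive gene it replaces. PSMB8 to PSMB5, the pair with chymotrypsin-like activity, stood at 0.267, 0.440 and 0.400 in the NRG1 libraries, against 0.276, 0.445 and 0.407 in the control libraries. Replicates 1, 2 and 3 of each group gave almost the same 3 ratios, and the log2 difference was -0.029 (two-sided exact permutation p = 0.7). Across all genes no pairing by replicate number was seen, which does not exclude one. PSMB9 to PSMB6 stood at 0.0593, 0.128 and 0.143 with NRG1, against 0.0969, 0.166 and 0.122 in controls, a log2 difference of -0.28 (exact permutation p = 0.7). PSMB10, the gene of the third immunoproteasome subunit, to PSMB7 stood at 0.0574, 0.139 and 0.130 with NRG1, against 0.0869, 0.116 and 0.0691 in controls, a log2 difference of 0.19 (exact permutation p = 0.8). In each of the 3 ratios the NRG1 1 library was the lowest of the 6. PSMB5, PSMB6 and PSMB7 had 114.8, 123.5 and 186.3 CPM in NRG1 1, above NRG1 2 (96.4, 84.5 and 120.8) and NRG1 3 (88.15, 79.5 and 128.6). In control 1 they had 119.5, 118.3 and 204.2 CPM, above control 2 (88.5, 95.4 and 166.6) and control 3 (80.4, 97.05 and 153.9). The low ratios of NRG1 1 thus had high constitutive values below them, and the part of each gene was not tested.

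The divergent pair TAP1 and PSMB9 gave expected-count ratios of 8.33, 7.49 and 6.57 in the NRG1 libraries, against 6.43, 6.96 and 6.19 in the control libraries. TAP1 to TAP2 gave 0.547, 0.792 and 0.713 with NRG1, against 0.672, 0.821 and 1.16 in controls. The log2 differences were 0.19 (exact permutation p = 0.2) for TAP1 to PSMB9 and -0.35 (exact permutation p = 0.4) for TAP1 to TAP2. After Benjamini-Hochberg adjustment over all 9 ratios computed, each of these exact permutation p-values was 0.9.

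**Figure D3:**
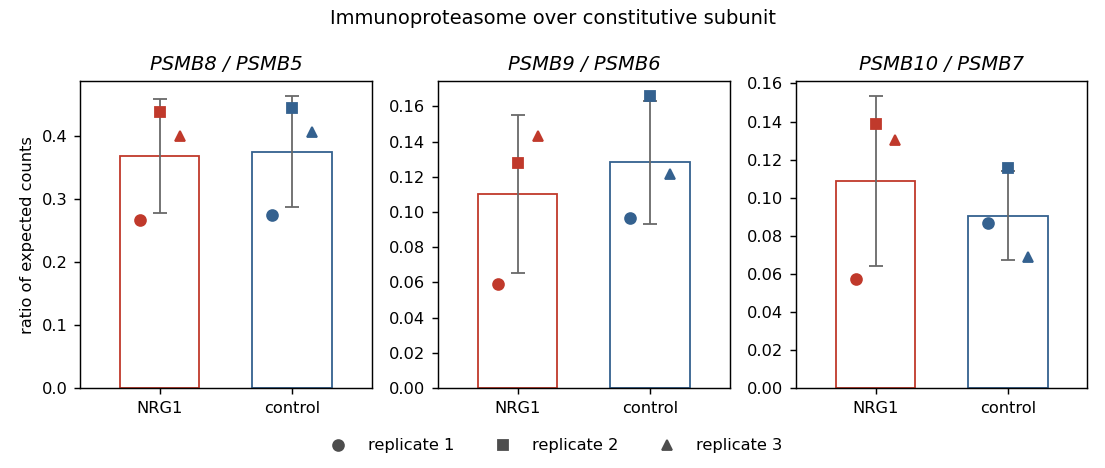
Ratio of expected counts of PSMB8 to PSMB5, PSMB9 to PSMB6 and PSMB10 to PSMB7 (y axis, no unit, starting at 0), with 1 point per library for NRG1 and control, the group mean and a line for the SD. The groups overlap in all 3 panels, and the lowest point of each panel is the NRG1 1 library.

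Divided by the length of the longest basic coding transcript (GENCODE 29), the members spanned a wide range of levels, averaged over the 6 libraries. B2M led with 322.1 CPM per kb, followed by HLA-C with 232.7, HLA-B with 113.8 and HLA-E with 60.0 CPM per kb. TAP1 with 26.7 and PSMB8 with 26.3 CPM per kb came next, then TAP2 with 18.4, PSMB9 with 14.4 and HLA-F with 14.1 CPM per kb. The library ranges of B2M and HLA-C overlapped, as did those of each neighbouring pair from TAP1 down to HLA-F. The ranges of HLA-C and HLA-B did not overlap, nor did those of HLA-B and HLA-E or of HLA-E and TAP1. By group, B2M had 328.0 ± 56.6 CPM per kb with NRG1 and 316.2 ± 42.0 CPM per kb in controls, and PSMB9 had 12.4 ± 2.81 CPM per kb with NRG1 and 16.5 ± 3.08 CPM per kb in controls (SD, n = 3 each).

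The libraries also differed within each group. NRG1 1 was the lowest of all 6 libraries in 6 of 9 members, and control 2 the highest in 4 of 9. The shares over all genes were not computed, so these counts do not show a trait particular to the members. Over the 6 libraries, log2 levels ran most closely together for HLA-C and HLA-F (Pearson r = 0.925), HLA-F and B2M (r = 0.915) and TAP1 and PSMB9 (r = 0.903). TAP2 did not follow the heavy chains, with r between -0.286 for HLA-B and 0.055 for HLA-F, and HLA-E had r = -0.013 with B2M. These correlations describe 6 libraries only, of which NRG1 1 and control 3 stood apart. By the same measure, the genes outside the members whose level ran closest to their mean were ING5 (r = 0.992), SHANK3 (r = 0.992), LGALS7B (r = 0.990), SLC22A18 (r = 0.989) and LYSMD2 (r = 0.988), of 11831 genes ranked. ING5 had 31.4, 48.3 and 47.7 CPM with NRG1, against 38.2, 51.9 and 39.7 CPM in controls. LGALS7B has a near-identical copy, so its counts are uncertain.

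The second question set the class I genes against the interferon direction. Of 39 tested genes on a list of type I interferon-stimulated genes outside the members, 30 had a log2 fold change below 0 and 9 above, with a median of -0.61. With an unadjusted p under 0.05 in edgeR, 12 of 39 were lower and 0 higher, against 6.72% lower and 5.08% higher over all genes tested, and 0 passed the adjusted threshold. DESeq2 called 5 of them lower and 0 higher, against 0.759% and 0.597% of all genes. OASL, an antiviral oligoadenylate synthetase-like gene, had 22.5, 18.2 and 19.4 CPM with NRG1, against 65.6, 89.1 and 53.5 CPM in controls (log2 fold change -1.79, SE 0.234, adjusted p = 0.0902 in edgeR). Its NRG1 values were all far below its control values. IFI44, RIGI, the cytosolic RNA sensor, and HERC5, the ISG15 ligase, had log2 fold changes of -1.36, -1.10 and -1.13 (edgeR adjusted p = 0.166, 0.184 and 0.239), and DESeq2 called all 4 lower (adjusted p = 3.55e-08 for OASL, 5.45e-05, 0.000471 and 0.0048).

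The list median was -0.34 without NRG1 1 and -0.33 without control 2, and its difference from the members was not tested. By library, the median log2 difference from the control mean over the 9 members was -0.26, 0.17 and 0.11 in the NRG1 libraries, against -0.17, 0.23 and -0.092 in the control libraries. Over the 39 interferon-stimulated genes it was -0.86, -0.30 and -0.27 with NRG1, against -0.059, 0.42 and -0.41 in controls. Control 3 lay below NRG1 2 and NRG1 3 on this list, so its groups overlapped too. The members' median minus the list's median was 0.60, 0.47 and 0.38 in the NRG1 libraries, against -0.11, -0.19 and 0.31 in the control libraries. Every NRG1 value of this difference was above every control value, with control 3 close to NRG1 3, and it is given with no test because the lists were chosen with earlier results of these data known. In bulk RNA, fewer cells expressing a gene and less RNA per cell cannot be told apart.

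**Figure D4:**
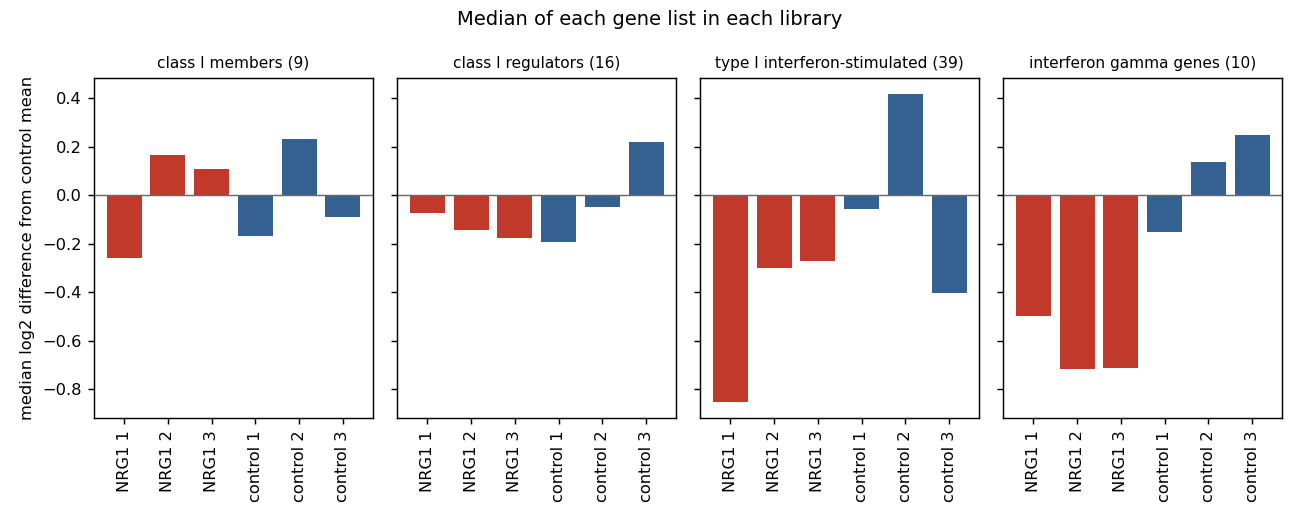
Median log2 difference from the control mean (y axis) in each library for the 9 members, 16 regulators, 39 type I interferon-stimulated genes and 10 interferon gamma genes, with 1 bar per library. The interferon gamma list lies between -0.72 and -0.50 in the 3 NRG1 libraries, while the member bars are -0.26, 0.17 and 0.11 there.

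Genes known for their response to interferon gamma gave 7 of 10 tested genes below 0, with a median of -0.77, which was -0.38 without NRG1 1 and control 3. In 4 of the 10 the unadjusted edgeR p was under 0.05, all lower, against 6.72% lower over all genes tested, and edgeR called 0 after adjustment. GBP1, an interferon-induced GTPase, had 7.91, 5.79 and 6.62 CPM with NRG1, against 11.5, 22.6 and 29.8 CPM in controls (log2 fold change -1.66, SE 0.380, edgeR adjusted p = 0.268), and DESeq2 called it lower (adjusted p = 0.00589). GBP4, CD274, which encodes the checkpoint ligand PD-L1, and GBP3 had edgeR log2 fold changes of -1.33, -0.96 and -0.59 (adjusted p = 0.358, 0.394 and 0.395), and without NRG1 1 and control 3 CD274 was at -0.58. All 4, picked by their small p, were lower in every NRG1 library than in any control library. Over the list this held for 5 of 10 tested genes, against 10.2% of all genes tested. IFNG, the gene of interferon gamma itself, had 0 counts in all 6 libraries, and none of the 8 interferon genes looked up had enough counts to be tested.

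The regulators of class I genes gave 5 of 16 above 0 and 11 below, with a median of -0.16 and 0 with an unadjusted edgeR p under 0.05. IRF1, an interferon-induced activator that binds the ISRE, had 23.7, 43.3 and 39.3 CPM in the NRG1 libraries, against 46.2, 48.4 and 53.4 CPM in the control libraries. All 3 NRG1 values were below the controls, NRG1 1 furthest (log2 fold change -0.47, SE 0.241, edgeR adjusted p = 0.463). NFKB1, IRF9 and IRF2, an NF-kappaB subunit and 2 members of the IRF family, had log2 fold changes of -0.48, -0.68 and -0.56 (edgeR adjusted p = 0.466, 0.466 and 0.482). Without NRG1 1 and control 3, NFKB1 was at -0.17, IRF2 at -0.097 and IRF1 at -0.20, and without NRG1 1 alone IRF9 was at -0.39. NLRC5, named after its values were seen, gave 0.38 (SE 0.342, adjusted p = 0.654) in edgeR. NLRC5 had 11.5, 24.8 and 25.9 CPM with NRG1, against 15.1, 12.6 and 20.1 CPM in controls, with NRG1 2 and NRG1 3 the highest of the 6. It was at 0.67 without NRG1 1 (adjusted p = 0.251), and without both NRG1 1 and control 3 edgeR called it higher (0.87, adjusted p = 0.0198). That last setting called 9.82% of all genes. Its p-values are too small, because the libraries left out were chosen for their distance.

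Of 9 interferon receptor and kinase genes, 1 was above 0 and 8 below. At an unadjusted edgeR p under 0.05 were 2, both lower, against 6.72% lower over all genes tested. TYK2, the kinase bound to the type I interferon receptor, had 72.8, 111.0 and 96.3 CPM with NRG1, against 132.2, 141.7 and 161.9 CPM in controls (log2 fold change -0.64, SE 0.190, edgeR adjusted p = 0.335). IFNLR1, a subunit of the interferon lambda receptor, had 16.7, 19.99 and 15.1 CPM with NRG1, against 20.8, 25.8 and 50.3 CPM in controls (log2 fold change -0.91, SE 0.346, edgeR adjusted p = 0.390). In both genes, picked by their small p, the NRG1 libraries were all lower than the controls, and control 3 was the highest. Over the list this order of the groups held for 2 of 9 genes, against 10.2% of all genes tested. Without NRG1 1 and control 3, TYK2 was at -0.40 and IFNLR1 at -0.40.

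Over 3 against 3 libraries, the remaining steps of peptide supply and loading gave median log2 fold changes near 0, as the members did. Of 9 genes of the loading complex and peptide trimming, 6 were above 0 and 3 below (median 0.13), with 0 at an unadjusted edgeR p under 0.05. UGGT1, which checks glycoprotein folding, TAPBP, the tapasin gene that bridges TAP and the heavy chain, BCAP31, an export factor, and CALR, the chaperone calreticulin, had edgeR log2 fold changes of 0.32, 0.24, -0.19 and -0.25 (adjusted p = 0.462, 0.630, 0.665 and 0.625). Without NRG1 1 and control 3, TAPBP was at 0.073 and CALR at -0.46. There edgeR called BCAP31 (-0.42, adjusted p = 0.0486) and the proteasome partner PSMB7 (-0.57, adjusted p = 0.0321) lower, and it called 9.82% of all genes. TAPBP had 83.8, 87.9 and 77.2 CPM in the NRG1 libraries, against 85.0, 72.0 and 54.4 CPM in the control libraries. Proteasome partner genes gave 4 of 8 above 0 and 4 below, and the other genes of the 20S core gave 3 of 10 above 0 and 7 below, again with 0 at an unadjusted edgeR p under 0.05. The 20S median was -0.071, and -0.29 without NRG1 1 and control 3, where the members' median was 0.11. By library, the 20S list had medians of 0.28, -0.27 and -0.26 against the control mean in the NRG1 libraries. The members had the opposite signs there, at -0.26, 0.17 and 0.11. In the control libraries the 20S medians were 0.19, -0.19 and 0.011, and those of the members -0.17, 0.23 and -0.092. The opposite signs were thus seen in both groups.

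Chains related to class I gave another split. Of 14 such genes outside the members, 5 were above 0 and 9 below (median -0.19). At an unadjusted edgeR p under 0.05, 1 was higher and 3 lower, against 5.08% higher and 6.72% lower over all genes tested. RAET1G, ULBP1 and MICA, which encode stress ligands of the killer cell receptor NKG2D, had log2 fold changes of -0.94, -1.16 and -0.93 (edgeR adjusted p = 0.334, 0.411 and 0.390). FCGRT, the gene of the neonatal Fc receptor chain that also pairs with beta-2-microglobulin, gave 0.81 (adjusted p = 0.402). The groups of ULBP1, MICA and FCGRT overlapped. Control 3 was the highest library for ULBP1 (38.9 CPM) and MICA (80.8 CPM), and without NRG1 1 and control 3 they were at -0.82 and -0.67. Of 10 class II genes, 5 had enough counts to be tested, with 4 above 0 and 1 below. CD74, the invariant chain of class II, had 1.73, 4.39 and 7.06 CPM with NRG1, against 1.53, 0.807 and 1.70 CPM in controls (log2 fold change 1.68, SE 0.549, edgeR adjusted p = 0.358), higher in every NRG1 library on 8 to 64.95 expected counts per library, with NRG1 1 just above control 3. Without NRG1 1 and control 3, edgeR called CD74 higher (2.23, adjusted p = 0.0202) and RAET1G lower (-0.68, adjusted p = 0.029). Of the 14 class I-related genes it called 1 higher and RAET1G alone lower there, against 9.82% of all genes in either direction. The median of the 14 was -0.37.

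**Figure D5:**
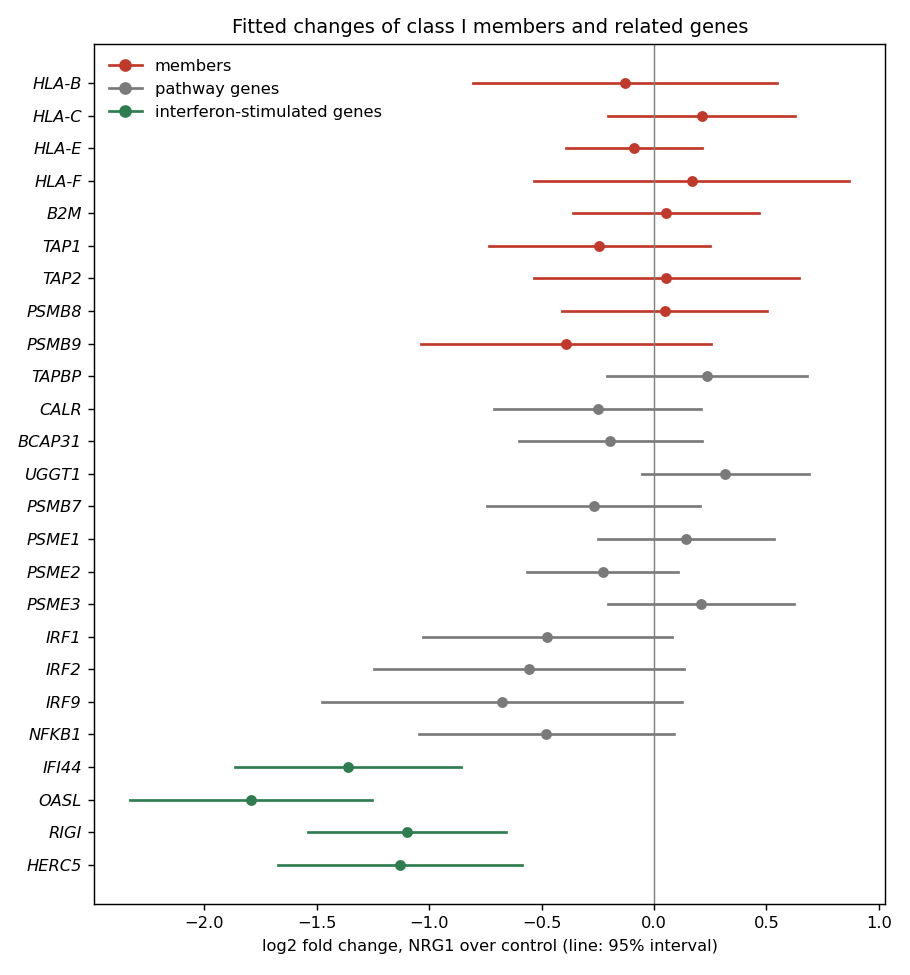
Fitted log2 fold change (NRG1 over control, x axis) with its 95% interval for the 9 members, genes of loading, proteasome and regulation, and 4 type I interferon-stimulated genes. Apart from the members, the genes shown are the 4 with the smallest p in each list. All 9 member intervals cross 0, between -1.04 and 0.87. OASL, IFI44, RIGI and HERC5 lie left of 0, with edgeR adjusted p of 0.0902 to 0.239. These 4 were picked by p from 39 tested genes, of which 30 were below 0 and 9 above.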

How the data were processed

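PolyA RNA of AALE cells was prepared with a TruSeq RNA kit, per the labels' protocols, of a kind that does not mark strand. The deposited expected counts were not normalized. Tools listed, with no role, are RSEM 1.3.0, STAR 2.5.3a, MultiQC 0.9 and FastQC 0.11.3, with the hg19 build, per the submitters' processing notes. The gene models used were not named in these sources. A second deposited table held log2 values of 14759 genes, which equalled, within 1e-08, log2 CPM recomputed from the counts of the same genes (TMM, prior count 0.25); it served as a check.

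Expected counts were rounded, filtered with filterByExpr and scaled by TMM. The test was edgeR's quasi-likelihood test (version 4.0.16, R 4.3.3), with group as the only term. Benjamini-Hochberg adjustment ran over all 15421 genes tested, and an adjusted p under 0.05 was called. Levels are TMM-scaled CPM. Ratios used the expected counts, with an exact permutation test; 3 of the 9 ratios were planned and 6 were added. Intervals are 95%, and 3 counts, the floor used, came to 0.232 to 0.371 CPM. All 9 members passed the low-count filter. The tests were tried on simulated data. Alternatives were DESeq2 1.42.0, limma 3.58.1 (trend and voom), other scalings and filters, a replicate block, leaving out each library, and 2 against 2 libraries without NRG1 1 and control 3, chosen for their distance, which makes its p-values too small.

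The members and lists were chosen with earlier results of these data known. Named genes are the members, NRG1, up to 4 genes of each list with the smallest p, the proteasome partners in the ratios and the 5 genes of at least 5 CPM most alike the members' mean; others are marked. Some are not reported here. Symbols were matched by identifier for 51959 genes. Lengths and overlaps came from GENCODE 29, and promoters from RefSeq.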

Additional observations from a re-analysis of the deposited data

How the results depend on the processing

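None of the 9 members was called under any of the 16 alternatives. Calls over all genes numbered 1, against 209 with DESeq2, 21 with no low-count filter, 2 with limma-trend on log2(CPM + 1), 2 with limma-trend on log2(CPM + 0.25), 2 with limma-voom and 1515 with 2 against 2 libraries, and ran from 1 to 37 when 1 library was left out. With the replicate number as a block there were 2 calls, 0 of them members. Deviations of same-numbered libraries correlated at 0.0198, 0.125 and -0.0801. No pairing by replicate number was seen in these values, which does not exclude one.

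Under all 16 alternatives HLA-C stayed above 0 (0.09 to 0.39) and HLA-E (-0.13 to -0.04), TAP1 (-0.35 to -0.02) and PSMB9 (-0.51 to -0.22) stayed below. The members' median ran from -0.083 to 0.14 when 1 library was left out, below 0 without control 3 (-0.020), NRG1 2 (-0.083) or NRG1 3 (-0.030); the median of the interferon-stimulated genes stayed below 0, from -0.79 to -0.33. With 2 against 2 libraries HLA-B turned to 0.25, TAP2 to -0.23, PSMB8 to PSMB5 to 0.26 and PSMB9 to PSMB6 to 0.095. Leaving out 1 library turned the sign of HLA-B (-0.33 to 0.12), HLA-F (-0.047 to 0.42), B2M (-0.030 to 0.19), TAP2 (-0.21 to 0.30), PSMB8 (-0.085 to 0.15) and the class I sum (-0.010 to 0.26), and of the log2 ratios PSMB8 to PSMB5 (-0.24 to 0.19), PSMB9 to PSMB6 (-0.52 to 0.12) and PSMB10 to PSMB7 (-0.034 to 0.60). The cause was not tested. The members' expected counts ran from 59.21 to 6500, and their 95% intervals reached from a fold of 0.487 to one of 1.83, so a change within a member's own interval was not told apart from none.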
